A study of Caenorhabditis elegans with 12 samples.

Results

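The genes described here are the nuclear hormone receptor genes of *Caenorhabditis elegans* whose symbol in the WBcel235 gene table begins with *nhr-*, leaving out *nhr-23* and *nhr-25*. A gene was represented by its transcript row with the highest mean count, and a mean raw count of at least 10 over the 12 libraries was required. This gave 220 genes of the 20188 in the count table. They comprised 214 protein-coding genes and 6 pseudogenes, and 173 of them had a single row. Another 57 *nhr-* genes lay below the minimum, and 10 of these had no count in any library. The genes nearest the minimum on the inside were *nhr-246* (10 counts), *nhr-271* (10.8) and *nhr-188* (13.2), and on the outside *nhr-214* (9.33), *nhr-280* (9.17) and *nhr-196* (9.0).

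RNA was sequenced from whole, bleach-synchronised L3 larvae collected 31 hr after hatching, with 3 libraries for each of 4 strains. The comparisons ask how mutations in *lin-22*, which encodes a Hes-related bHLH repressor that acts in the epidermis, alter gene expression. JR667 is wild type for *lin-22* and carries *unc-119(e2498::Tc1)* with the seam cell marker *wIs51*[SCMp::GFP + *unc-119(+)*]. MBA81 is *lin-22(icb38)* with *wIs51*. Its deletion lies 2371 bp upstream of the ATG, removes part of *vrp-1* and carries an insertion from *mca-3*. OH4265 is *lin-22(ot267)*, which has a premature stop codon, and OH4271 is *lin-22(ot269)*, a C-to-T change farther upstream. They are called *icb38*, *ot267* and *ot269* below, and *icb38* and *ot269* together the upstream mutants. Both OH strains carry *vtIs1* in place of *wIs51*, so in their comparisons with JR667 the allele, the transgene and the strain background cannot be told apart. Each allele was sampled from a single strain, and the 3 comparisons with JR667 share its libraries.

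Nuclear hormone receptors are transcription factors that pair a zinc finger DNA-binding domain with a pocket for small lipophilic ligands such as sterols and fatty acids. Nematodes have far more of them than insects or vertebrates, and most of the additional genes descend from a receptor related to vertebrate HNF4. In *C. elegans* those with a known function act in fat storage, nutrient sensing, detoxification, developmental timing and moulting, many of them in the intestine and the epidermis. In whole larvae a lower count can come from fewer cells of a type or from less RNA per cell, and these cannot be told apart.

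Library totals ranged from 56479069 to 78920246 counts, and the 220 genes took between 0.190% and 0.242% of them. *lin-22* itself had 251 to 342 normalised counts in JR667, 107 to 270.0 in *icb38*, 293 to 356 in *ot267* and 101 to 167 in *ot269*. *icb38* replicate 1, with 270.0, lay inside the JR667 range. That library and JR667 replicate 1 stood farthest from their own replicates, and counts were repeated without both. Replicates are not stated to come from separate cultures, so the p-values measure the spread between these libraries, which may be technical.

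The family lies mostly on 1 chromosome. Chromosome V held 145 of the 220 genes (65.9%), against 21.5% of all protein-coding genes with a mean count of at least 10. IV held 28, X 17, I and II 12 each and III 6. Neighbours were taken from the order of annotated protein-coding genes, in which the pseudogenes of the family have no place. In that order 109 of the 220 had no other member beside them, and the rest formed 35 runs, of which 12 had at least 3 genes. The longest run, on V, held 9 genes from *nhr-185* to *nhr-124*. Mean raw counts ranged from 10 to 8237 with a median of 389.9. The coefficient of variation among the 3 libraries of a strain had a median of 14.4% over the family in JR667, 12.6% in *icb38*, 14.7% in *ot267* and 10.9% in *ot269*, beside 15.3%, 12.5%, 12.3% and 8.82% over all rows tested.

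Across the 4 strains, 80 of the 220 genes (36.4%) passed the F-test of edgeR's quasi-likelihood model, beside 34.9% of the 19696 rows tested. A gene was called when its Benjamini-Hochberg adjusted p over all rows was at most 0.1, and edgeR adjusted p below refers to this value. Among genes with a mean of at least 1000 counts 26 of 45 were called (57.8%, beside 39.1% of rows), among those with 100 to 1000 counts 51 of 139 (36.7%, beside 39.1%), and among those with 10 to 100 counts 3 of 36 (8.33%, beside 20.6%). On chromosome V 43 of 145 were called (29.7%, beside 38.3% of rows there), and on the other chromosomes 37 of 75 (49.3%, beside 34.3%).

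In *icb38* 30 of the 220 genes (13.6%) were called against JR667, beside 16.2% of all rows. Of these, 22 were higher, beside 7.66% of rows, and 8 were lower, beside 8.55%. The median log2 fold change of the family was 0.02, and that of all rows 0.01. The count rested on few libraries, since it was 12 without JR667 replicate 3 and 12 without *icb38* replicate 3, but 28 without both libraries that stood apart.

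*ot267* gave 36 calls against JR667 (16.4%), beside 8.7% of all rows. Here 12 genes were higher, beside 4.1% of rows, and 24 were lower (10.9%), beside 4.59%. The family median was -0.11 and that of all rows 0.01, and 85 of the 220 values were above 0. When only library totals were used for scaling, which moved the median of all rows to 0.09, the split became 17 higher and 19 lower. Without both libraries that stood apart it was 10 higher and 20 lower, with a family median of -0.06.

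*ot269* gave 66 calls against JR667 (30.0%), beside 26.3% of all rows. Of these, 39 genes were higher, beside 12.9% of rows, and 27 were lower, beside 13.4%. The family median was -0.01 and that of all rows 0.01. Scaling by library totals moved the median of all rows to 0.14 and the split to 53 higher and 17 lower.

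Both OH strains carry the same transgene. Against *ot267*, *ot269* had 18 calls (8.18%), beside 9.93% of all rows. Of these 16 were higher, beside 5.63% of rows, and 2 were lower, beside 4.3%. The family median was 0.13 and that of all rows -0.01. The number of calls was 9 without *ot269* replicate 1 and 9 without *ot269* replicate 3, and 29 without both libraries that stood apart, neither of which belongs to these strains. Against *icb38*, *ot269* had 27 calls (12.3%), beside 18.3% of all rows, of which 11 were higher, beside 9.75%, and 16 lower, beside 8.53%. This count was 11, 13 or 14 without *ot269* replicate 1, 2 or 3 and 15 without *icb38* replicate 2. Under scaling by library totals the split was 25 higher and 8 lower, with a median of all rows of 0.11. Counted with 1 row per gene, the shares of all 16110 genes called were 16.4%, 8.92% and 26.9% for the 3 mutants against JR667, 10.6% for *ot269* against *ot267* and 19% against *icb38*, and 35.9% for the F-test.

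**Figure D1:**
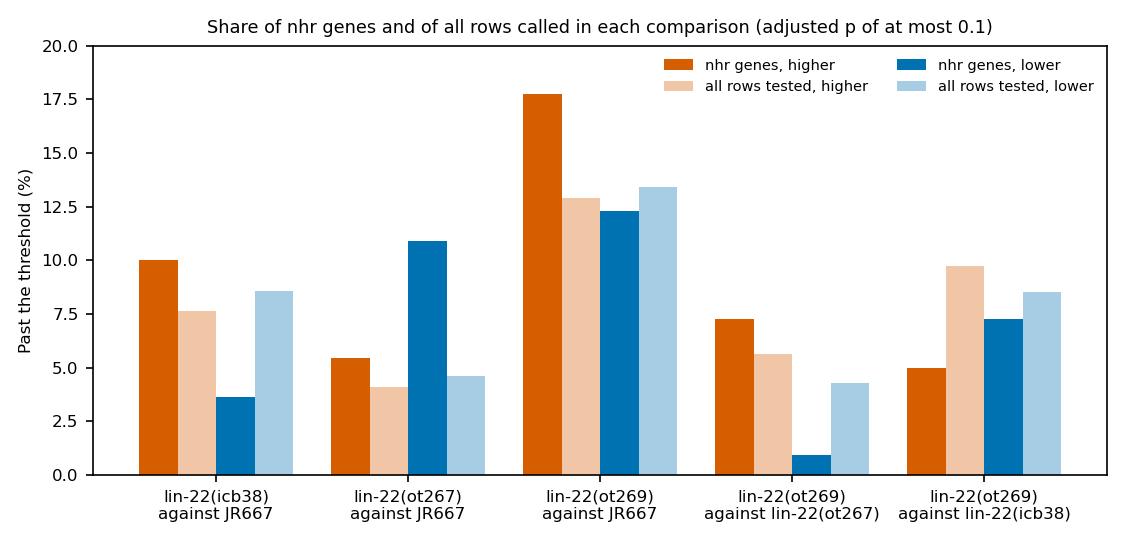
Percentage of the 220 *nhr-* genes (solid bars) and of all 19696 rows tested (pale bars) called as higher (orange) or lower (blue) in each of the 5 comparisons, at an edgeR adjusted p of at most 0.1. The share of *nhr-* genes called lower in *ot267* was 10.9%, beside 4.59% of rows, and in *icb38* 22 genes were called higher and 8 lower.

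Some receptors are conserved between nematodes, insects and vertebrates. Of 8 such genes, 7 passed the count minimum, and *nhr-111*, with a mean of 6.42 counts, did not. Against JR667, 16.2% of all rows were called in *icb38*, 8.7% in *ot267* and 26.3% in *ot269*. These are the shares to set beside each list count against JR667 below. In *icb38* 4 of the 7 conserved genes rose and none fell against JR667, in *ot267* 1 rose, and in *ot269* 3 rose and 1 fell. In *icb38* each of these 4 calls was lost in at least 2 of the 6 fits that left out 1 library, and 1 of them remained without both libraries that stood apart.

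*nhr-91* is the worm relative of germ cell nuclear factor. It had 1612, 1814 and 1518 normalised counts in JR667, 1938, 1951 and 2139.7 in *icb38*, 1494, 1429.7 and 1529 in *ot267* and 2425, 2463 and 2531 in *ot269*. All *ot269* libraries lay above every library of the other strains. The log2 fold change of *ot269* was 0.59 (SE 0.10, edgeR adjusted p = 0.000745) against JR667, 0.74 (SE 0.10, edgeR adjusted p = 0.00021) against *ot267* and 0.30 (SE 0.09, edgeR adjusted p = 0.052) against *icb38*. In *icb38* it was 0.29 (SE 0.10, edgeR adjusted p = 0.0691) against JR667, without overlap, and that call was lost without JR667 replicates 1 or 3 or *icb38* replicates 2 or 3 (edgeR adjusted p up to 0.228). The call against *icb38* was lost without *ot269* replicates 1, 2 or 3 or *icb38* replicates 1 or 2 (edgeR adjusted p up to 0.153). On the gene's transcript row of lowest count both of these calls were lost too (edgeR adjusted p of 0.192 and 0.136). The log2 value in *ot267* was -0.15 (SE 0.10, edgeR adjusted p = 0.4). The first 2 calls of *ot269* were kept in all 6 fits that left out 1 library.

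*nhr-41*, related to the vertebrate testicular receptors, had 1988, 3062 and 2149.9 normalised counts in JR667, 3505, 3989 and 3276 in *icb38*, 3537, 2773 and 3846 in *ot267* and 4209, 4088 and 3624 in *ot269*. JR667 replicate 2, at 3062, reached into the *ot267* range but not into those of the upstream mutants. It rose by a log2 fold change of 0.73 (SE 0.16, edgeR adjusted p = 0.00555) in *ot269*, a call kept in all 6 fits that left out 1 library. Its log2 value was 0.58 (SE 0.16, edgeR adjusted p = 0.0299) in *icb38*, lost without JR667 replicate 3 or *icb38* replicate 2 (edgeR adjusted p up to 0.118). In *ot267* the log2 fold change was 0.50 (SE 0.16, edgeR adjusted p = 0.0862), lost without JR667 replicates 1 or 3 or *ot267* replicates 1 or 3 (edgeR adjusted p up to 0.307).

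*nhr-48*, which belongs to the group of the vitamin D receptor relative *daf-12*, had 807, 1456 and 1078 normalised counts in JR667, 1522, 1504 and 1582 in *icb38*, 1302, 1398 and 1164 in *ot267* and 1715, 1676 and 1492 in *ot269*. JR667 replicate 1 was the lowest library and both upstream mutants lay above all JR667 libraries. The log2 fold change was 0.55 (SE 0.16, edgeR adjusted p = 0.0289) in *ot269* and 0.46 (SE 0.16, edgeR adjusted p = 0.0815) in *icb38*. The second call was lost without JR667 replicates 1 or 3 or *icb38* replicates 1, 2 or 3 (edgeR adjusted p up to 0.206), and *ot267* did not pass the threshold at 0.21 (edgeR adjusted p of 0.495). On the gene's transcript row of lowest count the *icb38* call was lost too (edgeR adjusted p of 0.14).

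*nhr-85*, the homologue of insect E75 and vertebrate Rev-Erb and part of the larval timing pathway, had 1237, 1496 and 1126 normalised counts in JR667 and 1959.9, 1467 and 1583 in *icb38*, whose ranges overlapped. It rose by a log2 fold change of 0.38 (SE 0.14, edgeR adjusted p = 0.0948) in *icb38*, a call lost without JR667 replicates 1 or 3 or *icb38* replicates 1 or 3 (edgeR adjusted p up to 0.33). In *ot269*, with 1234, 1180.5 and 1219.9, it had a log2 fold change of -0.46 (SE 0.14, edgeR adjusted p = 0.0384) against *icb38*, a call lost without *ot269* replicates 2 or 3 or *icb38* replicate 1 (edgeR adjusted p up to 0.158). On the gene's transcript row of lowest count both calls were lost too (edgeR adjusted p of 0.134 and 0.108).

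*nhr-6*, the NR4A homologue needed to form the spermatheca, was lower in *ot269*. It had 880.0, 1222 and 924 normalised counts in JR667, 1158, 1015 and 988 in *icb38*, 1008, 835 and 686 in *ot267* and 658, 732 and 545 in *ot269*. Every *ot269* library was below every JR667 and *icb38* library. The log2 fold change of *ot269* was -0.64 (SE 0.16, edgeR adjusted p = 0.0138) against JR667 and -0.71 (SE 0.16, edgeR adjusted p = 0.0111) against *icb38*, both kept in all 6 fits that left out 1 library. The other conserved genes gave no call in any pairwise comparison. *nhr-67*, the Tailless homologue that acts in the vulva and anchor cell, had log2 fold changes of 0.14, -0.19 and -0.15 in *icb38*, *ot267* and *ot269*. *nhr-8*, a *daf-12* relative in sterol balance and toxin resistance, had log2 fold changes of -0.06, -0.19 and -0.07.

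**Figure D2:**
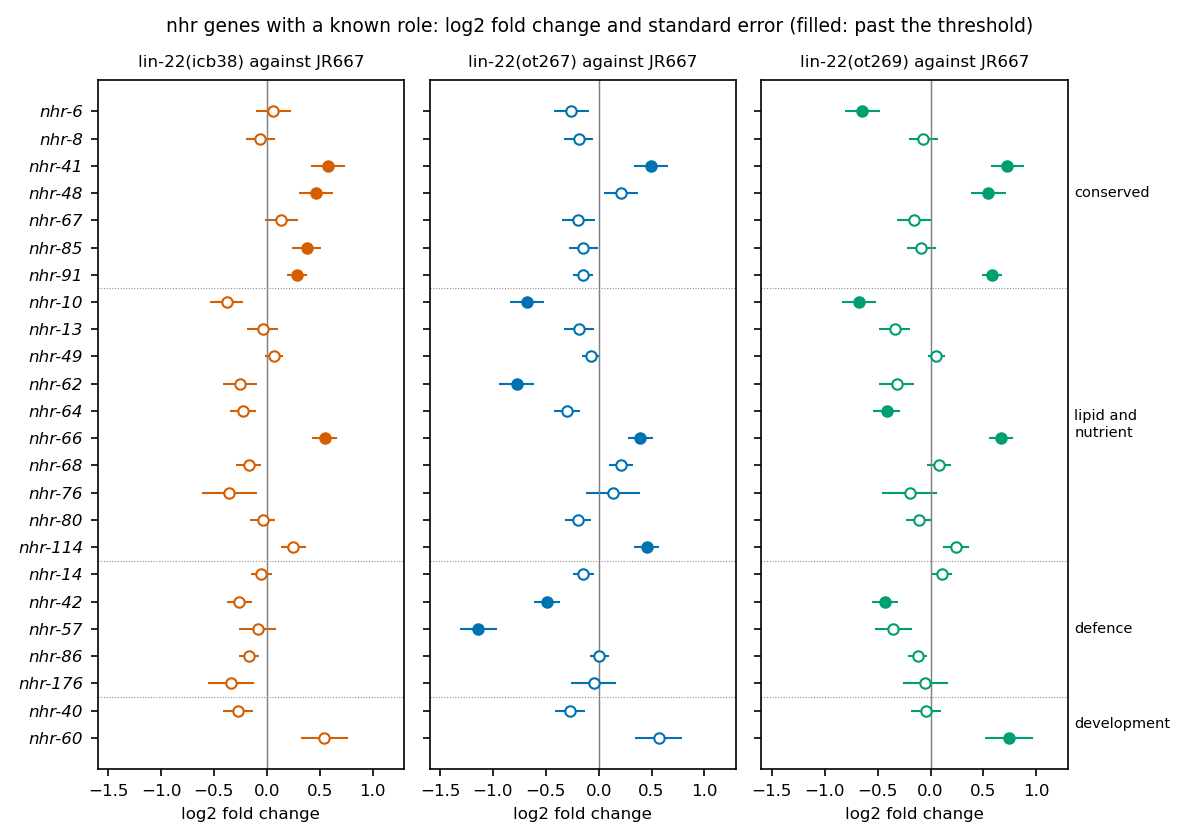
Log2 fold changes against JR667 (points, with standard errors) of 24 *nhr-* genes with a known role in *icb38*, *ot267* and *ot269*, filled where the edgeR adjusted p was at most 0.1. *nhr-66* and *nhr-41* are filled on the positive side in all 3 panels, the *nhr-57* value in *ot267* is -1.14, and *nhr-49* is unfilled in all 3 panels.

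Among 10 receptors of lipid and nutrient metabolism, 1 rose in *icb38* against JR667, beside 16.2% of all rows called. In *ot267* 2 rose and 2 fell, beside 8.7%, and in *ot269* 1 rose and 2 fell, beside 26.3%. None was called between *ot269* and either other mutant, where the largest log2 differences were 0.45 (edgeR adjusted p of 0.129) for *nhr-62* against *ot267* and -0.30 (edgeR adjusted p of 0.212) for *nhr-13* against *icb38*. The summed normalised counts of 8 intestinal marker genes were 379568 to 417416 in JR667, 337248 to 546973 in *icb38*, 288299 to 360056 in *ot267* and 334432 to 339446 in *ot269*. Of these 8 markers 1, 0 and 2 were called, all as lower. The 2 in *ot269* became 0 without *ot269* replicate 2 and 1 without JR667 replicate 2 or 3 or *ot269* replicate 1 or 3. Their part in the receptor values was not tested.

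*nhr-66*, a partner of NHR-49 in sphingolipid and fat metabolism, had 700.0, 891 and 704 normalised counts in JR667, 1082, 1138 and 1137 in *icb38*, 1058, 1029 and 924 in *ot267* and 1193, 1316 and 1131 in *ot269*. All libraries of the 3 mutants lay above all JR667 libraries. The log2 fold change was 0.55 (SE 0.12, edgeR adjusted p = 0.00898) in *icb38*, 0.39 (SE 0.12, edgeR adjusted p = 0.0687) in *ot267* and 0.67 (SE 0.12, edgeR adjusted p = 0.00135) in *ot269*. The call in *ot267* was lost without JR667 replicates 1 or 3 or *ot267* replicates 1 or 2 (edgeR adjusted p up to 0.182). The gene's transcript row of lowest count had a log2 fold change of 0.14 (edgeR adjusted p of 0.536) in *ot267*.

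*nhr-10*, which with *nhr-68* switches on the propionate shunt when propionate builds up, had 3368, 2537 and 3454 normalised counts in JR667, 1886, 3047 and 2261 in *icb38*, 2053, 1899 and 1892 in *ot267* and 2055, 1714 and 2098 in *ot269*. The *ot267* and *ot269* libraries lay below all JR667 libraries, while *icb38* overlapped both sides. It fell, with a log2 fold change of -0.68 (SE 0.16, edgeR adjusted p = 0.0232) in *ot267* and -0.67 (SE 0.16, edgeR adjusted p = 0.00954) in *ot269* on the log2 scale, and both calls were kept in all 6 fits that left out 1 library. In *icb38* the log2 fold change was -0.38 (SE 0.16, edgeR adjusted p = 0.149).

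*nhr-62*, a receptor required for the lifespan gained by dietary restriction, had 1007, 740.3 and 788 normalised counts in JR667 and 619, 418 and 446 in *ot267*, with a log2 fold change of -0.77 (SE 0.16, edgeR adjusted p = 0.0128) and no overlap. Its log2 fold changes were -0.25 (edgeR adjusted p of 0.361) in *icb38* and -0.32 (edgeR adjusted p of 0.187) in *ot269*. *nhr-114*, which acts on the methionine cycle when vitamin B12 is scarce, had 4142, 5531 and 4305 in JR667 and 6230.3, 6981 and 5929.8 in *ot267*, a log2 fold change of 0.45 (SE 0.12, edgeR adjusted p = 0.0418) that was lost without JR667 replicates 1 or 3 or *ot267* replicate 2 (edgeR adjusted p up to 0.122). *nhr-64*, a regulator of fat content, was lower in *ot269*, at 538, 531 and 470.2 beside 775, 653 and 626 in JR667. Its log2 fold change there was -0.42 (SE 0.12, edgeR adjusted p = 0.0315), lost without JR667 replicate 1 or *ot269* replicate 3 (edgeR adjusted p up to 0.122) and under scaling by library totals. In *icb38* and *ot267* the means of 585 and 555 normalised counts were also below the JR667 mean of 685, without a call. The transcript row of lowest count of *nhr-64* had a log2 fold change of -0.23 (edgeR adjusted p of 0.357) in *ot269*.

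The remaining lipid receptors gave no call in any pairwise comparison. By the F-test across the strains 6 of the 10 lipid and nutrient receptors were called, more than had a pairwise call. *nhr-49*, the main regulator of fat desaturation and fasting responses, had 1986, 2071 and 1943 normalised counts in JR667, 2053, 2185 and 2067 in *icb38*, 1847, 1929 and 1921 in *ot267* and 2068, 2057 and 2112 in *ot269*. Its log2 fold changes were 0.07 (SE 0.08, edgeR adjusted p = 0.646), -0.07 (SE 0.08, edgeR adjusted p = 0.657) and 0.06 (SE 0.08, edgeR adjusted p = 0.698) in *icb38*, *ot267* and *ot269*. *nhr-80*, its partner for the desaturase genes, had log2 fold changes of -0.04, -0.19 and -0.11. *nhr-13*, another partner, had log2 fold changes of -0.04, -0.19 and -0.34. *nhr-68* had log2 fold changes of -0.17, 0.21 and 0.08, and *nhr-76*, which acts in serotonin-driven fat loss, -0.35, 0.13 and -0.20. The largest standard error among these was 0.26, for *nhr-76*.

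Genes known to be controlled by these receptors were counted as lists. Of 8 NHR-49 targets, 1 rose and 2 fell in *icb38*, 1 rose and 2 fell in *ot267*, and 1 rose and 3 fell in *ot269*, with list medians of -0.10, -0.30 and -0.47 beside 0.01 for all rows in each. The 2 that fell in *ot267* became 1 without *ot267* replicate 3. *acs-2*, an acyl-CoA synthetase of mitochondrial fat oxidation, had 10439 ± 3441 normalised counts in JR667 and 7349 ± 3651, 1849 ± 581 and 1922 ± 124 in *icb38*, *ot267* and *ot269* (mean ± SD, n = 3). It fell, with a log2 fold change of -2.50 (edgeR adjusted p of 0.000348) in *ot267* and -2.44 (edgeR adjusted p of 0.000105) in *ot269*, and had a log2 fold change of -0.51 (edgeR adjusted p of 0.31) in *icb38*. *fat-5*, a palmitoyl-CoA desaturase, was the target that rose, by 1.55 (edgeR adjusted p of 0.00349), 2.05 (edgeR adjusted p of 0.000799) and 3.18 (edgeR adjusted p of 6.33e-06) in the same order. *fat-7*, a stearoyl-CoA desaturase, fell, with a log2 fold change of -2.12 (edgeR adjusted p of 3.27e-05) in *icb38* and -1.20 (edgeR adjusted p of 0.000496) in *ot269*, and had a log2 fold change of -0.44 (edgeR adjusted p of 0.188) in *ot267*. These calls were kept in all fits that left out 1 library.

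Of 5 propionate shunt genes, 4 fell in *icb38*, 1 in *ot267* and all 5 in *ot269*, with medians of -0.55, -0.23 and -0.52. Without both libraries that stood apart 3 fell in *ot267*. The 2 with the smallest adjusted p were *hach-1*, a hydrolase of the pathway, and *ech-6*, its enoyl-CoA hydratase. *hach-1* fell, with log2 fold changes of -0.67 (edgeR adjusted p of 0.000733), -0.45 (edgeR adjusted p of 0.0123) and -0.63 (edgeR adjusted p of 0.000425) in *icb38*, *ot267* and *ot269*, and *ech-6* fell, with a log2 fold change of -0.67 (edgeR adjusted p of 0.00113) and -0.60 (edgeR adjusted p of 0.00106) in the first and the last. Of 7 genes of the methionine and S-adenosylmethionine cycle, 1 rose in *icb38*, none was called in *ot267* and 6 fell in *ot269*, with a median there of -0.40. *pmt-2*, which methylates phosphoethanolamine intermediates, fell, with a log2 fold change of -0.74 (edgeR adjusted p of 0.00105) in *ot269*, and *metr-1*, the methionine synthase, fell, with a log2 fold change of -0.75 (edgeR adjusted p of 0.00374). The 6 became 4 in the lowest fit without 1 library. In *icb38* none fell, but 3 did without both libraries that stood apart.

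The defence and detoxification receptors gave 3 calls against JR667. Of 6 genes, none was called in *icb38*, beside 16.2% of all rows, and 2 fell in *ot267*, beside 8.7% called. In *ot269* 1 fell, beside 26.3% called. *nhr-57*, a target of the hypoxia factor HIF-1, had 499, 550.5 and 469 normalised counts in JR667, 561, 451 and 416 in *icb38*, 281, 238 and 169 in *ot267* and 399.8, 378 and 412 in *ot269*. The *ot267* libraries were the lowest and overlapped with no other strain. Its log2 fold change in *ot267* was -1.14 (SE 0.18, edgeR adjusted p = 0.00182), and *ot269* was higher than *ot267* by 0.79 (SE 0.18, edgeR adjusted p = 0.0145). Against JR667 *icb38* and *ot269* had log2 fold changes of -0.09 and -0.35. *nhr-42*, a receptor that acts in the immune response, had 1816, 1612 and 1760.0 in JR667, 1272, 1130.3 and 1297 in *ot267* and 1300.4, 1229.7 and 1324 in *ot269*. Both OH strains lay below JR667, with log2 fold changes of -0.49 (SE 0.12, edgeR adjusted p = 0.0285) and -0.43 (SE 0.12, edgeR adjusted p = 0.0228). The second call was lost under scaling by library totals.

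*nhr-86*, a receptor for a metabolite of pathogenic *Pseudomonas*, had log2 fold changes of -0.17, 0.01 and -0.12 in *icb38*, *ot267* and *ot269*. *nhr-14*, which links iron uptake to immunity, had log2 fold changes of -0.05, -0.15 and 0.11. *nhr-176*, a receptor of xenobiotic detoxification, had log2 fold changes of -0.34, -0.05 and -0.05. None of these was called, with standard errors of 0.09, 0.10 and 0.22. Of the infection response genes controlled by NHR-86, *irg-4* had 17209 ± 635 normalised counts in JR667, 11308 ± 815 in *icb38*, 15718 ± 356 in *ot267* and 22471 ± 2431 in *ot269*. It fell, with a log2 fold change of -0.61 (edgeR adjusted p of 0.00205) in *icb38* and rose by a log2 fold change of 0.38 (edgeR adjusted p of 0.0167) in *ot269*. *irg-5* fell, with a log2 fold change of -1.54 (edgeR adjusted p of 0.000477) in *ot267*. Of the 3 genes on this list 2 fell in *icb38*, 1 fell in *ot267* and 1 rose in *ot269*. The 2 in *icb38* became 1 without JR667 replicate 1, without any 1 of the *icb38* libraries, and without both libraries that stood apart.

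Of the receptors of development, 1 rose in *icb38*, beside 16.2% of all rows called, and none was called in *ot267*, beside 8.7%. In *ot269* 1 rose and 1 fell, beside 26.3% called. Besides *nhr-6*, *nhr-67* and *nhr-85*, the list held *nhr-40*, *nhr-60* and *nhr-2*. *nhr-2*, with a mean of 8.75 counts, was below the minimum. *nhr-60*, reported to be needed for normal seam cells, had 149.6, 105 and 129.7 normalised counts in JR667, 191, 147 and 223 in *icb38*, 186, 219 and 164 in *ot267* and 262, 176.5 and 206 in *ot269*. The *ot269* libraries lay above the JR667 ones, with a log2 fold change of 0.74 (SE 0.22, edgeR adjusted p = 0.0315) that was lost without JR667 replicate 2 or *ot269* replicate 1 (edgeR adjusted p up to 0.146). In *icb38* and *ot267* it had a log2 fold change of 0.54 (edgeR adjusted p of 0.14) and 0.57 (edgeR adjusted p of 0.165). Of 6 seam cell markers 2, 0 and 4 were higher in *icb38*, *ot267* and *ot269* than in JR667, and their part in the *nhr-60* values was not tested. *nhr-40*, needed for muscle and movement, had log2 fold changes of -0.27, -0.27 and -0.04, none called. Of 5 nuclear receptors with other symbols, *daf-12*, the receptor for the steroid hormone dafachronic acid, had 1602 ± 289 normalised counts in JR667, 3224 ± 111.2 in *icb38*, 1934 ± 175 in *ot267* and 3797 ± 339.9 in *ot269*. It rose by a log2 fold change of 1.01 (edgeR adjusted p of 0.000322) in *icb38* and 1.24 (edgeR adjusted p of 1.25e-05) in *ot269*, and *ot267* had a log2 fold change of 0.27 (edgeR adjusted p of 0.236). *ot269* exceeded *ot267* by a log2 fold change of 0.97 (edgeR adjusted p of 0.000192). *sex-1*, an X chromosome counting receptor, was the other of the 5 called, with a log2 fold change of 0.44 (edgeR adjusted p of 0.0685) in *ot269*, a call lost without JR667 replicates 1 or 3 or *ot269* replicates 2 or 3 (edgeR adjusted p up to 0.258).

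Among 10 genes for cofactors and for making or carrying receptor ligands, 2 rose in *icb38*, 1 fell in *ot267* and 4 rose in *ot269* against JR667, with medians of 0.15, 0.04 and 0.48. These counts rested on few libraries. The 2 in *icb38* became 1 without JR667 replicate 1 or 3 and 0 without *icb38* replicate 1, and the 1 in *ot267* became 0 without JR667 replicate 1 or 2 or *ot267* replicate 3. The 4 in *ot269* became 2 without *ot269* replicate 3 and 7 without JR667 replicate 2. *din-1*, a corepressor of DAF-12, rose by a log2 fold change of 0.65 (edgeR adjusted p of 0.00266) in *ot269*, and *daf-9*, the cytochrome P450 that completes dafachronic acid, by 0.61 (edgeR adjusted p of 0.00468). Against *ot267* they were higher by a log2 fold change of 0.65 (edgeR adjusted p of 0.00495) and 0.52 (edgeR adjusted p of 0.0262) in *ot269*. The *daf-9* call against *ot267* was lost without *ot269* replicate 1 (edgeR adjusted p = 0.142). Of the 10 genes 5 were higher in *ot269* than in *ot267*, beside 5.63% of all rows. The 5 became 1 without *ot269* replicate 1, 2 without *ot269* replicate 3 and 3 without any 1 of the *ot267* libraries. The 5 included the sterol dehydrogenase gene *hsd-1*, at 0 in all *ot267* libraries and 11.5 ± 8.44 in *ot269*, for which no fold is given. The *hsd-1* call was lost without *ot267* replicates 1 or 2 or 3 or *ot269* replicates 1 or 3 (edgeR adjusted p up to 0.173).

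The genes that follow have no assigned role here. Most were chosen by the size of their change among called genes whose groups did not overlap. In the comparison that named a gene, that separation was therefore set by the choice. *nhr-3* had the smallest adjusted p of the F-test in the family. It had 1120.1, 974 and 880.0 normalised counts in JR667, 2859, 2157 and 3631 in *icb38*, 1589.8, 1644 and 1515 in *ot267* and 2045, 2548 and 2249 in *ot269*. Each mutant lay wholly above JR667, and *ot267* below both upstream mutants. On the log2 scale the difference was 1.54 (SE 0.16, edgeR adjusted p = 9.83e-05) in *icb38*, 0.68 (SE 0.16, edgeR adjusted p = 0.0227) in *ot267* and 1.20 (SE 0.16, edgeR adjusted p = 0.000142) in *ot269*, each kept in all 6 fits that left out 1 library. *nhr-1*, named after its values were seen, had a log2 fold change of 0.75 (edgeR adjusted p of 0.000784), 0.48 (edgeR adjusted p of 0.018) and 0.61 (edgeR adjusted p of 0.00145) in the same order.

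*nhr-147* was also higher in the 3 mutants than in JR667. It had 88.6, 54.7 and 74.5 normalised counts in JR667, 172, 113 and 189 in *icb38*, 136, 172 and 139 in *ot267* and 195, 252 and 230.2 in *ot269*. No mutant library fell within the JR667 range of 54.7 to 88.6. Its log2 fold change was 1.12 (SE 0.25, edgeR adjusted p = 0.0104), 1.04 (SE 0.25, edgeR adjusted p = 0.0242) and 1.63 (SE 0.25, edgeR adjusted p = 0.000428) in *icb38*, *ot267* and *ot269*.

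*nhr-54* followed with 130.2, 108 and 123 normalised counts in JR667, 206, 250.1 and 258 in *icb38*, 197, 192 and 229 in *ot267* and 211, 222 and 245 in *ot269*. The mutants overlapped one another and lay above JR667. Its log2 fold changes were 0.98 (SE 0.17, edgeR adjusted p = 0.00284), 0.77 (SE 0.17, edgeR adjusted p = 0.0182) and 0.90 (SE 0.17, edgeR adjusted p = 0.0025) in the same order.

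*nhr-145* had 359, 323 and 289 normalised counts in JR667, 384, 511 and 448 in *icb38*, 532, 468 and 477 in *ot267* and 651, 664 and 691 in *ot269*. The *ot269* libraries were the highest and did not overlap with any other strain. Against JR667 the log2 fold change was 0.47 (SE 0.14, edgeR adjusted p = 0.0427), 0.60 (SE 0.14, edgeR adjusted p = 0.0185) and 1.05 (SE 0.14, edgeR adjusted p = 0.000122), and *ot269* was above *ot267* by a log2 fold change of 0.44 (SE 0.14, edgeR adjusted p = 0.0661) and above *icb38* by a log2 fold change of 0.58 (SE 0.14, edgeR adjusted p = 0.0116). *nhr-152* had 56.3, 72.9 and 51.5 normalised counts in JR667, 92.6, 94.1 and 113 in *icb38*, 158, 97.1 and 144 in *ot267* and 103, 109.9 and 135 in *ot269*. It was above the JR667 range in all mutant libraries, with log2 fold changes of 0.73 (SE 0.26, edgeR adjusted p = 0.0908), 1.14 (SE 0.26, edgeR adjusted p = 0.0196) and 0.95 (SE 0.26, edgeR adjusted p = 0.0205). The *ot267* calls of *nhr-54* and *nhr-152* were lost when only the 6 libraries of both strains were fitted.

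**Figure D3:**
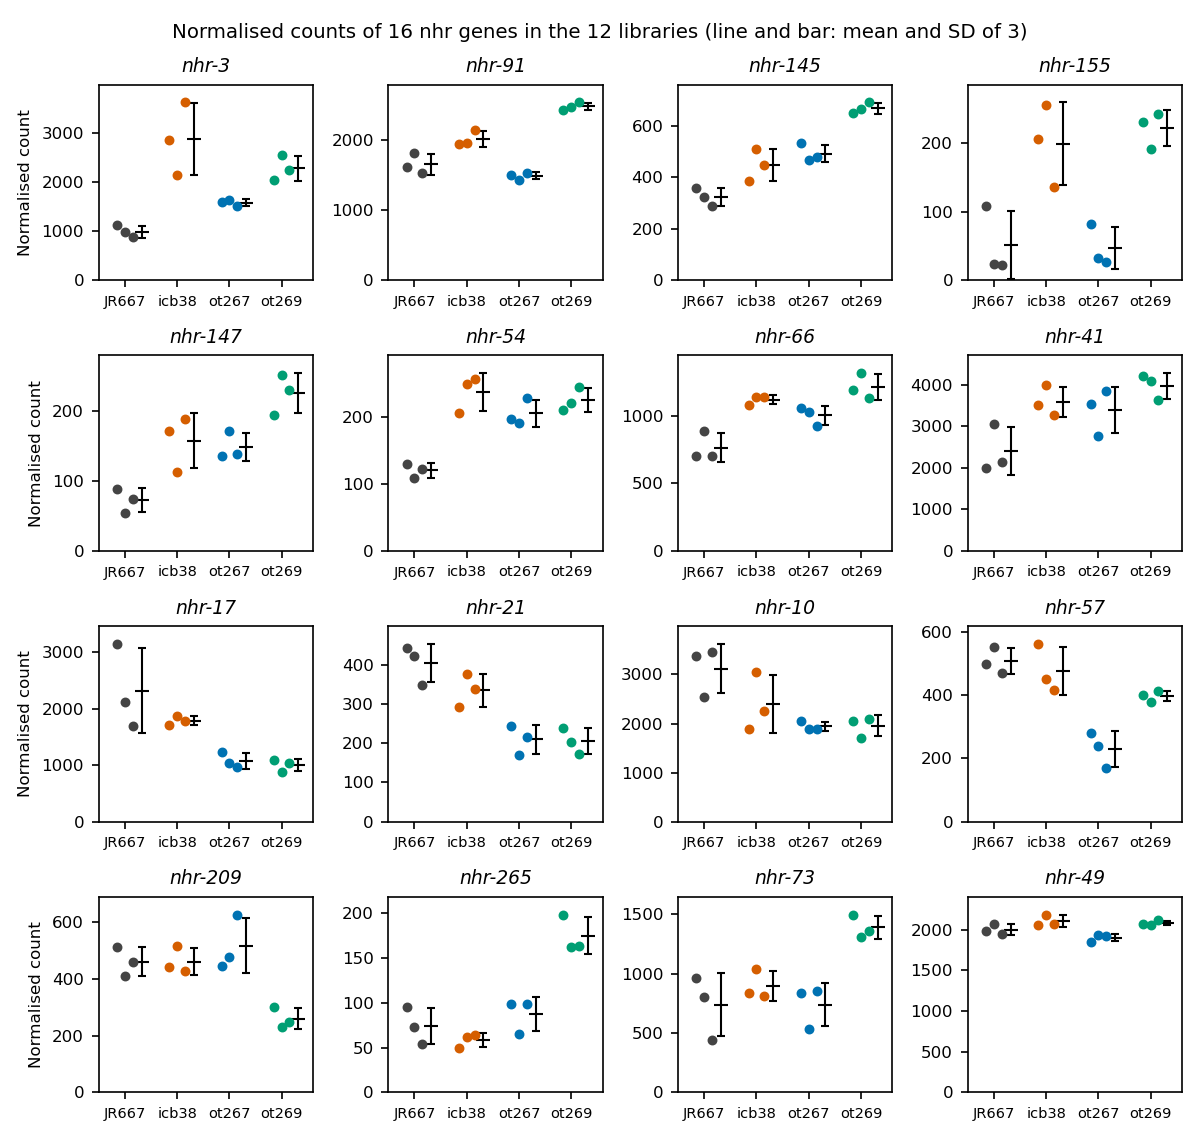
Normalised counts of 16 *nhr-* genes in each library (points, replicates 1 to 3 from left to right) by strain, with the mean and SD of 3 libraries to the right of the points and every axis starting at 0. The 3 JR667 libraries of *nhr-3* lie between 880.0 and 1120 and all mutant libraries at 1515 or above, whereas *nhr-49* stays between 1847 and 2185 in all 12 libraries.

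*nhr-155* was high in both upstream mutants and low in the other strains. It had 109, 23.02 and 22.1 normalised counts in JR667, 207, 256 and 136 in *icb38*, 82.4, 32.4 and 26.6 in *ot267* and 232, 192 and 243 in *ot269*. JR667 replicate 1 and *ot267* replicate 1 were above their own replicates and still below every library of the upstream mutants. In log2 terms the difference was 1.95 (SE 0.53, edgeR adjusted p = 0.0294) in *icb38* and 2.11 (SE 0.53, edgeR adjusted p = 0.0128) in *ot269* against JR667, and 2.23 (SE 0.54, edgeR adjusted p = 0.0209) in *ot269* against *ot267*. *ot267* differed from JR667 by a log2 fold change of -0.12 (SE 0.55, edgeR adjusted p = 0.924). The call in *icb38* was lost without JR667 replicate 3 (edgeR adjusted p = 0.11).

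Several genes were highest in *ot269*. *nhr-265* had 95.1, 72.9 and 54.3 normalised counts in JR667, 49.7, 61.9 and 64.2 in *icb38*, 98.9, 65.6 and 98.5 in *ot267* and 199, 162 and 164 in *ot269*. Its *ot269* libraries overlapped with no other strain, and the log2 fold change was 1.24 (SE 0.27, edgeR adjusted p = 0.00555) against JR667, 0.999 (SE 0.27, edgeR adjusted p = 0.0367) against *ot267* and 1.58 (SE 0.27, edgeR adjusted p = 0.00167) against *icb38*. The second of these was lost without *ot267* replicate 2 or *ot269* replicate 1 (edgeR adjusted p up to 0.159).

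*nhr-73* had 965, 804 and 444 normalised counts in JR667, 833, 1041 and 809 in *icb38*, 837, 531 and 850.3 in *ot267* and 1497, 1306 and 1362 in *ot269*. All *ot269* libraries lay above every library of the other strains, of which the highest, *icb38* replicate 2, had 1041. It rose by a log2 fold change of 0.91 (SE 0.23, edgeR adjusted p = 0.0137) against JR667. Against *ot267* the log2 fold change was 0.91 (SE 0.23, edgeR adjusted p = 0.0288), lost without *ot267* replicate 2 or *ot269* replicate 1 (edgeR adjusted p up to 0.119). Against *icb38* the log2 fold change was 0.64 (SE 0.23, edgeR adjusted p = 0.0877), lost without *ot269* replicates 1, 2 or 3 or *icb38* replicates 1 or 3 (edgeR adjusted p up to 0.225). *nhr-245* had 947, 776 and 463 normalised counts in JR667, 808, 1019.6 and 844 in *icb38*, 775, 417 and 824 in *ot267* and 1406, 1278 and 1381 in *ot269*. Its *ot269* libraries were the 3 highest, with log2 fold changes of 0.89 (SE 0.24, edgeR adjusted p = 0.0198) against JR667 and 1.01 (SE 0.25, edgeR adjusted p = 0.0222) against *ot267*. *nhr-270*, at 305, 236 and 295 in *ot269* and 156, 189.7 and 97.3 in *ot267*, differed by a log2 fold change of 0.91 (SE 0.26, edgeR adjusted p = 0.0493), lost without *ot267* replicates 1 or 3 or *ot269* replicates 1 or 3 (edgeR adjusted p up to 0.169). The *icb38* libraries of *nhr-270* overlapped with those of *ot269*, at 277, 130 and 265 raw counts beside 287, 245 and 299.

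*nhr-123* and *nhr-171* had lower counts. *nhr-123* had 120.0, 122 and 57.01 normalised counts in JR667 and 202, 201 and 297 in *ot269*, a log2 fold change of 1.23 (SE 0.30, edgeR adjusted p = 0.01). *nhr-171* had 28.6, 14.4 and 27.6 and 49.97, 66.5 and 69.1, or 1.39 (SE 0.40, edgeR adjusted p = 0.0248). For both genes *icb38* and *ot267* lay above JR667 without overlap and did not pass the threshold (0.55 and 0.78 for *nhr-123*, 0.95 and 1.11 for *nhr-171*).

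Moulting, seam and epidermal markers were counted in *ot269* as well. Of all rows, 12.9% were called higher and 13.4% lower there than in JR667, and 5.63% higher than in *ot267*. The 8 moulting markers summed to 162837 to 262431 normalised counts in JR667, 195457 to 293231 in *icb38*, 134519 to 182877 in *ot267* and 281961 to 301334 in *ot269*. Of the 8, 4 were higher and 1 (*bli-1*, a cuticle collagen) lower in *ot269* than in JR667, and 6 were higher than in *ot267*. The 4 ranged from 3 to 7 over the fits that left out 1 library, with 7 without JR667 replicate 2. They became 3 without both libraries that stood apart. The 6 ranged from 4 to 6 over the fits that left out 1 library, and became 7 without both libraries that stood apart. Of 6 seam cell markers 4 were higher in *ot269* than in JR667 (median 0.73) and 3 higher than in *ot267* (median 0.55), the latter 1 without *ot269* replicate 1. In *icb38* 2 of the 6 were higher than in JR667, or 1 without JR667 replicate 2 or 3 or *icb38* replicate 2 or 3, and in *ot267* none was called. The seam markers summed to 5722 to 6416 in JR667, 5794 to 7365 in *icb38*, 5318 to 7107 in *ot267* and 6691 to 7459 in *ot269*. Of 7 epidermal markers 2 were higher in *ot269* than in JR667 (median 0.22) and 3 higher than in *ot267* (median 0.33). The 2 became 1 without JR667 replicate 3 or *ot269* replicate 1 and 3 without JR667 replicate 2, and the 3 became 1 without *ot269* replicate 1. Their sums were 22873 to 33060 in JR667, 27224 to 29385 in *icb38*, 21221 to 25255 in *ot267* and 32225 to 34629 in *ot269*. The part of these 3 sets in the values of the receptors that were highest in *ot269* was not tested.

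*nhr-209* and *nhr-135* were the 2 genes called lower in *ot269* than in *ot267*. *nhr-209* had 512, 410.5 and 458 normalised counts in JR667, 441, 513 and 425 in *icb38*, 446, 477 and 626 in *ot267* and 299.8, 231 and 246 in *ot269*. The *ot269* libraries, all at or below 299.8, were below every other library. The log2 fold change of *ot269* was -0.83 (SE 0.16, edgeR adjusted p = 0.00299) against JR667, -0.99 (SE 0.16, edgeR adjusted p = 0.00162) against *ot267* and -0.83 (SE 0.16, edgeR adjusted p = 0.00432) against *icb38*, kept in all fits that left out 1 library of the last 2 comparisons. *nhr-135* had 1124, 937 and 929 in JR667, 830.4, 836 and 1047 in *ot267* and 661, 616 and 563 in *ot269*. It had log2 fold changes of -0.70 (SE 0.14, edgeR adjusted p = 0.00267) against JR667 and -0.56 (SE 0.14, edgeR adjusted p = 0.0226) against *ot267*, and the second call was lost without *ot269* replicate 3 (edgeR adjusted p = 0.111).

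A further set was low in both *vtIs1* strains. *nhr-17* had 3152, 2113 and 1696 normalised counts in JR667, 1715, 1875 and 1777 in *icb38*, 1236, 1032 and 966 in *ot267* and 1100.5, 885 and 1036 in *ot269*. JR667 replicate 1 was the highest library, *icb38* lay within the JR667 range, and every *ot267* and *ot269* library was below them. On the log2 scale the difference was -1.11 (SE 0.18, edgeR adjusted p = 0.00253) in *ot267* and -1.20 (SE 0.18, edgeR adjusted p = 0.000412) in *ot269* against JR667, -0.83 (SE 0.18, edgeR adjusted p = 0.00773) in *ot269* against *icb38*, and -0.38 (SE 0.18, edgeR adjusted p = 0.203) in *icb38* against JR667.

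*nhr-21* showed the same order, with 441, 423 and 349 normalised counts in JR667, 291, 375 and 338 in *icb38*, 243, 171 and 215 in *ot267* and 239, 203 and 173 in *ot269*. Both *vtIs1* strains lay below all JR667 and *icb38* libraries. It had log2 fold changes of -0.95 (SE 0.18, edgeR adjusted p = 0.00709) in *ot267* and -0.98 (SE 0.18, edgeR adjusted p = 0.00198) in *ot269* against JR667, and one of -0.71 (SE 0.18, edgeR adjusted p = 0.0201) in *ot269* against *icb38*. *nhr-53* had 413, 362 and 463 normalised counts in JR667, 218, 316 and 295 in *icb38*, 284, 163 and 147 in *ot267* and 179.7, 198 and 199 in *ot269*. Its log2 fold change was -1.06 (SE 0.23, edgeR adjusted p = 0.014) and -1.10 (SE 0.23, edgeR adjusted p = 0.00404) in the *vtIs1* strains, and -0.58 (SE 0.23, edgeR adjusted p = 0.118) in *icb38*, whose libraries were also below those of JR667.

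*nhr-237* had 901, 656 and 608 normalised counts in JR667, 500.0, 969.6 and 560.5 in *icb38*, 463, 326 and 239 in *ot267* and 414, 349 and 446 in *ot269*. The *vtIs1* strains lay below JR667, and *icb38* replicate 2 was the highest of the 12 libraries. Its log2 fold change was -1.07 (SE 0.26, edgeR adjusted p = 0.0263) in *ot267*, lost without *ot267* replicate 3 (edgeR adjusted p = 0.134), and -0.84 (SE 0.26, edgeR adjusted p = 0.0356) in *ot269*, lost without JR667 replicate 1 or *ot269* replicate 2 (edgeR adjusted p up to 0.126). Against *icb38*, *ot269* had a log2 fold change of -0.74 (SE 0.26, edgeR adjusted p = 0.0762), lost without *ot269* replicates 1, 2 or 3 or *icb38* replicate 2 (edgeR adjusted p up to 0.366).

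**Figure D4:**
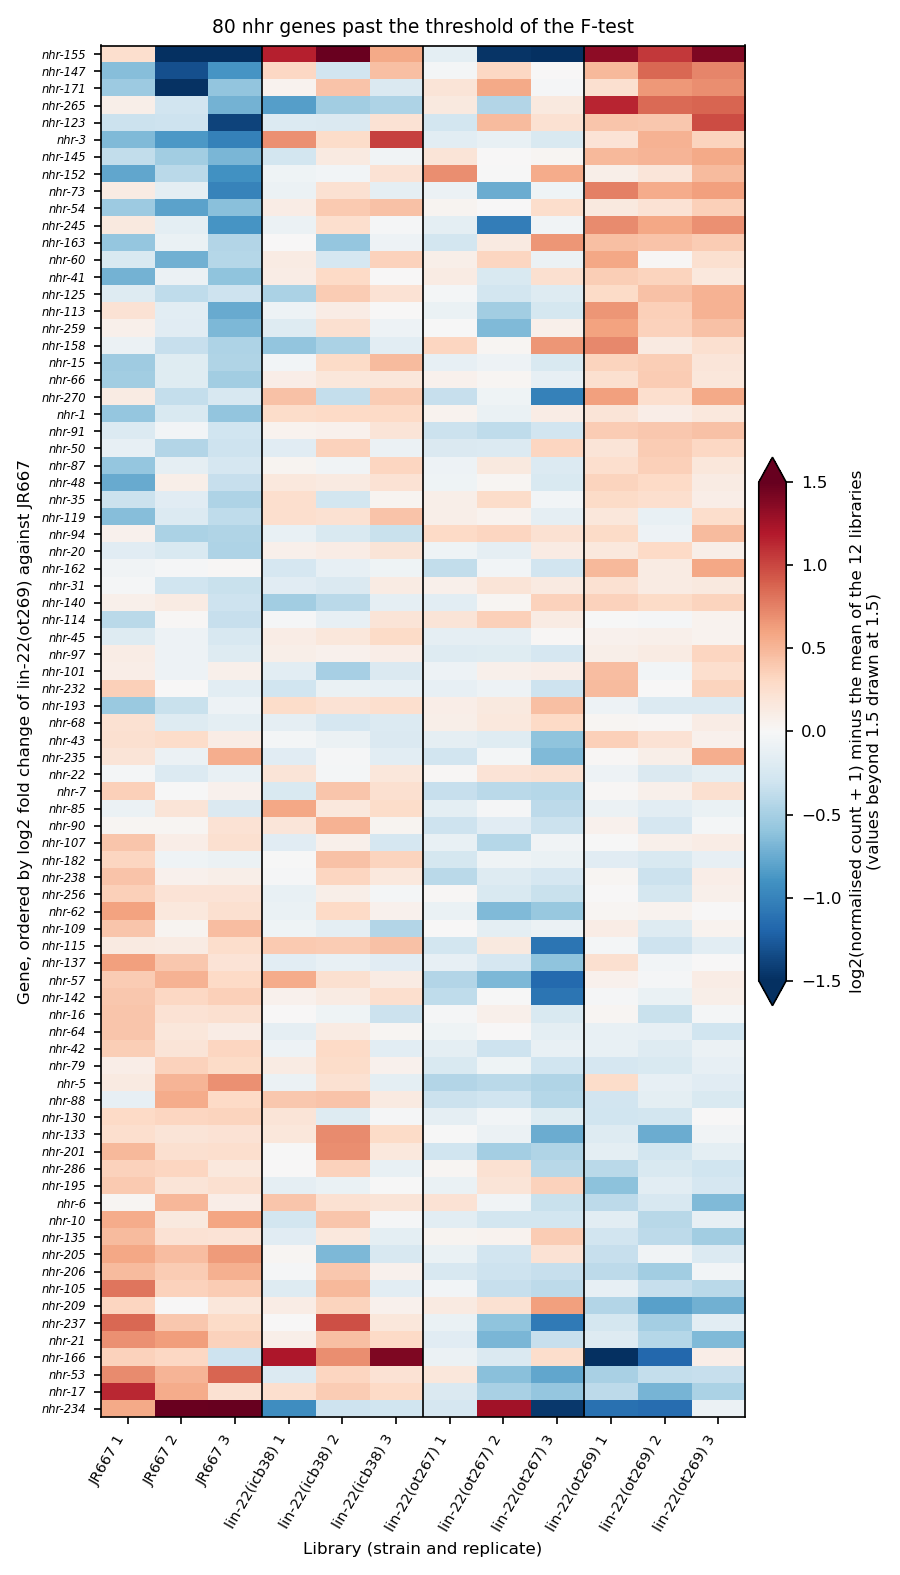
The 80 *nhr-* genes called by the F-test of the 4 strains (rows, ordered by the log2 fold change of *ot269* against JR667) in the 12 libraries (columns). Colour gives log2(normalised count + 1) minus the gene's mean over the libraries, red above and blue below. *nhr-155*, at the top, had 23.02 and 22.1 normalised counts in JR667 replicates 2 and 3 and at least 136 in every upstream mutant library, and *nhr-234*, at the bottom, at most 137 in those libraries and at least 217 in JR667. For *nhr-155*, JR667 replicate 1 lay between these values, nearer to the upstream mutants.

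Genes called lower in *icb38* were led by *nhr-234*, which had 217, 410.5 and 724 normalised counts in JR667, 76.02, 118 and 119 in *icb38*, 123, 353 and 53.3 in *ot267* and 66.99, 65.6 and 137 in *ot269*. The JR667 libraries spread from 217 to 724, and all lay above both upstream mutants, whereas *ot267* spread from 53.3 to 353. In log2 terms the difference was -2.11 (SE 0.55, edgeR adjusted p = 0.0256) in *icb38*, lost without JR667 replicate 3 (edgeR adjusted p = 0.12), and -2.32 (SE 0.56, edgeR adjusted p = 0.0102) in *ot269*. In *ot267* the log2 fold change was -1.34 (SE 0.53, edgeR adjusted p = 0.17).

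*nhr-205* had 380.5, 350.0 and 397 normalised counts in JR667, 258, 158 and 214 in *icb38*, 236, 208 and 294 in *ot267* and 199, 245 and 219 in *ot269*. JR667 was above all mutant libraries, and the log2 fold change was -0.83 (SE 0.19, edgeR adjusted p = 0.0132), -0.61 (SE 0.19, edgeR adjusted p = 0.0794) and -0.77 (SE 0.19, edgeR adjusted p = 0.0126) in *icb38*, *ot267* and *ot269*. *nhr-137* had 786, 674 and 589 in JR667, 456, 473 and 454 in *icb38* and 469, 428 and 336 in *ot267*, with log2 fold changes of -0.57 (SE 0.15, edgeR adjusted p = 0.026) and -0.73 (SE 0.15, edgeR adjusted p = 0.0107). The first of these was not called without both libraries that stood apart.

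*nhr-109* and *nhr-16* lie on chromosome II with *nhr-273* between them. *nhr-109* had 572, 440.2 and 592 in JR667 and 409, 386 and 316 in *icb38*, a log2 fold change of -0.53 (SE 0.15, edgeR adjusted p = 0.0394) that was lost as a call without JR667 replicate 3 or *icb38* replicate 3 (edgeR adjusted p up to 0.154). On its transcript row of lowest count the call was lost too (edgeR adjusted p of 0.254). *nhr-16* had 572, 499.6 and 509 and 431, 409.8 and 343, a log2 fold change of -0.42 (SE 0.15, edgeR adjusted p = 0.0831) that was lost as a call without JR667 replicates 1 or 3 or *icb38* replicates 2 or 3 (edgeR adjusted p up to 0.26). The values of this run were not particular to *icb38*. Over its 3 genes the median log2 fold change against JR667 was -0.42 in *icb38*, -0.34 in *ot267* and -0.32 in *ot269*, with 2, 0 and 1 called lower. *nhr-258*, the last of the genes that rose most in *icb38*, had 64.6, 59.5 and 38.6 in JR667 and 84.8, 120.3 and 108 in *icb38*. Its log2 fold change was 0.94 (SE 0.33, edgeR adjusted p = 0.0858), lost without JR667 replicates 2 or 3 or *icb38* replicates 2 or 3 (edgeR adjusted p up to 0.251). Germline markers were lower in *icb38* too, where 6 of 8 fell (median -0.67) and their sum was 23823 to 34848 beside 30986 to 55749 in JR667. In *ot267* and *ot269* 0 of the 8 were called against JR667, with medians of 0.25 and -0.04. Of the receptors above, *nhr-205* was also called lower in both of those strains, *nhr-234* in *ot269* and *nhr-137* in *ot267*. The 6 germline markers that fell in *icb38* became 3 without JR667 replicate 3 or *icb38* replicate 3, and 8 without both libraries that stood apart. The part of the germline markers in these receptor values was not tested.

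Between the upstream mutants 4 more genes stood out. *nhr-140* had 208, 225 and 271 in *icb38* and 382, 366 and 378 in *ot269*, a log2 fold change of 0.68 (SE 0.17, edgeR adjusted p = 0.0201). *nhr-158* had 76.02, 82.2 and 103 and 190.3, 126 and 136, a log2 fold change of 0.79 (SE 0.25, edgeR adjusted p = 0.0532) that was lost as a call without *ot269* replicate 1 or *icb38* replicates 1 or 2 (edgeR adjusted p up to 0.221). *nhr-133* had 731, 1063 and 793 and 566, 386 and 624, a log2 fold change of -0.71 (SE 0.21, edgeR adjusted p = 0.0339) that was lost as a call without *ot269* replicate 2 or *icb38* replicate 2 (edgeR adjusted p up to 0.154). *nhr-166* had 54.6, 38.1 and 62.3 and 3.19, 9.64 and 24.7, a log2 fold change of -2.03 (SE 0.60, edgeR adjusted p = 0.0395) that was lost as a call without *ot269* replicates 1 or 2 or *icb38* replicate 3 (edgeR adjusted p up to 0.146). These 4 genes were named only because their groups did not overlap, so the lack of overlap was set by that rule. In this comparison 6 of 8 germline markers were higher and 6 of 7 muscle markers lower in *ot269*, beside 9.75% and 8.53% of all rows. The 6 germline markers became 3 without *ot269* replicate 2. The part of these markers in the receptor values was not tested.

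Neighbouring genes were compared because the family is clustered. Among the 76 pairs of members that are next to each other, both genes were called in 0 pairs in *icb38*, 2 in *ot267* and 5 in *ot269* against JR667, and in 1 pair each for *ot269* against *ot267* and against *icb38*. In all of these pairs the direction was shared. Called or not, 53, 49, 51, 48 and 48 of the 76 pairs had log2 fold changes of the same sign in the 5 comparisons. In 15, 13, 35, 8 and 18 pairs, in the same order, only 1 gene was called. Over the 220 genes the shares called were 13.6%, 16.4%, 30.0%, 8.18% and 12.3%. Pairs of neighbouring genes outside the family were not counted, so whether position mattered for these calls was not tested. *nhr-74*, *nhr-73* and *nhr-259*, which lie side by side on chromosome I, were all higher in *ot269* than in JR667, by log2 fold changes of 0.78 (edgeR adjusted p of 0.0977), 0.91 (edgeR adjusted p of 0.0137) and 0.70 (edgeR adjusted p of 0.0355). *nhr-113* and *nhr-245*, also on chromosome I, were higher in *ot269* than in JR667, by log2 fold changes of 0.70 (edgeR adjusted p of 0.0187) and 0.89 (edgeR adjusted p of 0.0198), and than in *ot267*, by log2 fold changes of 0.80 (edgeR adjusted p of 0.019) and 1.01 (edgeR adjusted p of 0.0222). In the run of 9 genes on chromosome V only *nhr-158* was called, as higher in *ot269* than in JR667, by log2 fold changes of 0.69 (edgeR adjusted p of 0.0691), and than in *icb38*. Neighbours of similar sequence may share reads, and how such reads were assigned is not given in the sources used here.

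The 4 strains can be arranged in 3 ways into pairs of comparisons that share no library, and 2 of these were examined (*ot269* against JR667 beside *icb38* against *ot267* was not). In the first, each upstream mutant was set against the strain with the same transgene, *icb38* against JR667 (both *wIs51*) and *ot269* against *ot267* (both *vtIs1*, the second also mutant). Of the 30 and 18 genes called, 4 were in both, 13.3% and 22.2% of each, beside 570 rows in both over all rows, 17.9% and 29.1% of each. These were *nhr-155*, *nhr-3*, *nhr-91* and *nhr-145*, all higher in both, whereas 97 of the 570 rows went in opposite directions. The log2 fold changes of the 220 genes had a Pearson r of 0.25 and a Spearman rho of 0.14, and those of all 19696 rows 0.43 and 0.30. Genes are not independent replicates, and no p is given.

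In the second, each *vtIs1* strain was set against a *wIs51* strain, *ot267* against JR667 and *ot269* against *icb38*. Of the 36 and 27 genes called, 7 were in both, 19.4% and 25.9% of each. Over all rows 654 were in both, 38.2% and 18.2% of each, and 67 of these went in opposite directions. *nhr-17*, *nhr-21*, *nhr-79*, *nhr-88*, *nhr-201* and *nhr-237* were lower in both and *nhr-145* was higher. Pearson r was 0.28 and Spearman rho 0.28 over the family, beside 0.21 and 0.25 over all rows. *nhr-88* had a log2 fold change of -0.62 (edgeR adjusted p of 0.022) and -0.55 (edgeR adjusted p of 0.0217), *nhr-201* -0.75 (edgeR adjusted p of 0.0134) and -0.51 (edgeR adjusted p of 0.052), and *nhr-79* -0.44 (edgeR adjusted p of 0.0276) and -0.36 (edgeR adjusted p of 0.0421) in the first and the second comparison.

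**Figure D5:**
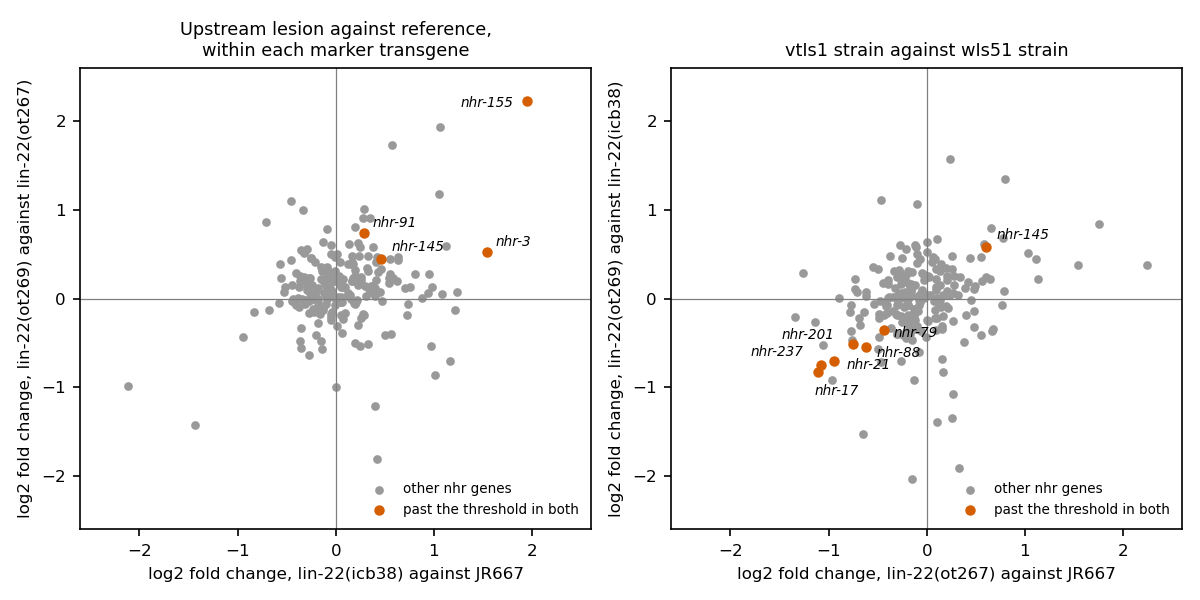
Log2 fold changes of the 220 *nhr-* genes in pairs of comparisons that share no library, for the upstream lesions within each transgene (left) and for *vtIs1* against *wIs51* strains (right), with genes called in both comparisons in orange. The 4 orange genes on the left are positive in both comparisons, and on the right 6 are negative and *nhr-145* is positive.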

How the data were processed

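Total RNA was extracted with TRIzol from 12 samples of whole L3 larvae and sequenced after a stranded mRNA kit. The authors aligned reads with Bowtie2 and counted them per transcript row with bedtools, and the deposited raw counts were used for all tests. The authors also deposited a table normalised with DESeq, a signal in which zeros were set to 1 and counts were divided by size factors, which was not used for tests. The genome build, the tool versions and the use of strand in counting are not given in the sources used here, so genes that overlap or have near-identical copies are uncertain.

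Of 23953 rows, 23133 matched a symbol in the WBcel235 table, and 182 rows (0.0773% of counts) had no gene name. Rows without a gene name were not removed before the fit, and were left out of the shares counted with 1 row per gene. Normalised counts are counts divided by size factors (edgeR 4.0.16, RLE, R 4.3.3). The 19696 rows that passed filterByExpr were fitted together over the 12 libraries with a coefficient per strain, and quasi-likelihood tests were adjusted by Benjamini-Hochberg at 0.1. Standard errors were approximated from the size of the log2 fold change over the root of its F value. Alternatives used DESeq2 1.42.0, other scalings, filters, rows and libraries, and the model was tested on simulated data. The values were tabulated and plotted with Python 3.11.15.

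The genes, their lists and the tests were chosen with earlier results of these data known. Named genes were those of the role lists, the 5 largest rises and falls per comparison among called genes whose groups did not overlap and whose higher group had a mean of at least 50 normalised counts, and the 3 smallest adjusted p of the F-test. A further part of that rule, on counts per length, was not run because coding lengths were not used here.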

Additional observations from a re-analysis of the deposited data

How the results depend on the processing

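No named call changed sign under any alternative that was run, while the family median of *ot269* against JR667 was -0.01 in the reported fit and 0.11 under scaling by library totals. In all, 45 of 72 named calls were kept in every fit that left out 1 library. Leaving out 1 library gave 12 to 27 called genes for *icb38* against JR667, 25 to 37 for *ot267* against JR667, 45 to 59 for *ot269* against JR667, 9 to 16 for *ot269* against *ot267*, 11 to 21 for *ot269* against *icb38* and 55 to 84 for the F-test. At a threshold of 0.05 the counts were 16 for *icb38* against JR667, 13 for *ot269* against *icb38* and 53 for the F-test. With only the 6 libraries compared they were 15 and 19 for *icb38* and *ot267* against JR667, and 28 and 42 for *ot269* against *ot267* and *icb38*. For *ot269* against *ot267* DESeq2 gave 30, and the fit without both libraries that stood apart, added after the data were seen, gave 29. The other settings left these counts within 1.5 times, and the cause of the differences was not tested.

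Same-numbered libraries of different strains had deviations correlated at -0.138 to 0.0593 (median -0.0375). For libraries of different strains with other numbers the range was -0.169 to 0.158 (median 0.0178). Whether the numbers pair the samples was not tested beyond these values. A fit with the replicate block gave 22, 28 and 61 called genes for *icb38*, *ot267* and *ot269* against JR667, 14 and 20 for *ot269* against *ot267* and *icb38*, and 68 for the F-test. With 3 libraries per strain, a difference that missed the threshold is not shown to be absent.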
